A study of Mus musculus with 10 samples.

Results

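Chemokines and their receptors were examined in the livers of mice fed either of 2 diets. The members were all probes whose platform gene symbol names a CC or CXC chemokine ligand (Ccl or Cxcl followed by a number), a CC or CXC chemokine receptor (Ccr or Cxcr followed by a number), or *Cx3cl1*, *Cx3cr1*, *Xcl1* or *Xcr1*. The rule used names and no measured value. It found 79 probes of 54 genes, 36 ligand genes and 18 receptor genes, among 45281 probes and 19057 named genes. All mice were of the 129S1/SvImJ;C57Bl/6J (B6/129) strain, an isogenic cross kept by inbreeding. Males aged 8 to 12 weeks were put on the diets, as the study's methods give it. The WD SW group ate a high fat Western diet containing cholesterol and drank a fructose and glucose solution, and the CD group ate chow with normal water. Liver RNA was taken after 8 weeks from 5 mice per diet and hybridised to 10 Illumina mouse bead arrays, 1 per liver. Replicate numbers only name the arrays.

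Chemokines are small secreted proteins that direct the movement of leukocytes. Each binds G protein-coupled receptors on its target cells, and activated receptors signal through inhibitory G proteins to the cytoskeleton and to integrins, so that rolling leukocytes arrest on endothelium and migrate into tissue. Inflammatory chemokines are induced by cytokines and microbial products and are known in liver for drawing monocytes, neutrophils and T cells, whereas homeostatic chemokines place lymphocytes and progenitor cells in resting tissue. In bulk liver RNA, a lower level from fewer cells of a type and from less RNA per cell cannot be told apart.

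The arrays differed in brightness. The signal at the 95th percentile lay between 870 and 1023 on the WD SW arrays, at 921 on CD replicate 1 and between 403 and 548 on the other 4 CD arrays, while the background level was 78.0 to 88.1 on all of them. Of the 79 chemokine and receptor probes 30 to 37 were above background on a WD SW array and 17 to 24 on a CD array, 22 on CD replicate 1. Of all probes 41.8% to 45.7% were above background on a WD SW array and 33.4% to 40.9% on a CD array, with 40.9% on CD replicate 1. CD replicates 3 and 4 stood apart from the other CD arrays in acute-phase genes and shared a number in their titles, whose meaning is not stated. Every number so shared was shared within 1 diet. Values with array brightness in the fit, without those 2 arrays or with the title number as a random block are given beside the calls of members that they ended. All 8 hepatocyte markers were above background on every array.

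Most chemokine genes gave little signal in these livers. A probe was tested where it was above its array's background on at least 5 of the 10 arrays, which held for 27 of the 79 member probes (34.2%, against 38.3% of all probes and 5.92% of 1504 probes for olfactory and vomeronasal receptors, which liver should lack). Another 33 probes were above background on 1 to 4 arrays and 19 on none. Among the 56 ligand probes 44.6% were tested, whereas only 2 of the 23 receptor probes were. At the gene level 21 members were tested, 19 ligands and 2 receptors. The 33 genes with no tested probe were the ligands *Ccl1*, *Ccl2*, *Ccl3*, *Ccl6*, *Ccl8*, *Ccl17*, *Ccl19*, *Ccl20*, *Ccl21c*, *Ccl22*, *Ccl26*, *Ccl28*, *Cxcl3*, *Cxcl11*, *Cxcl15*, *Cxcl17* and *Xcl1*, and the receptors *Ccr1*, *Ccr1l1*, *Ccr2*, *Ccr3*, *Ccr4*, *Ccr6*, *Ccr8*, *Ccr9*, *Ccr10*, *Cxcr1*, *Cxcr2*, *Cxcr3*, *Cxcr4*, *Cxcr5*, *Cxcr6* and *Xcr1*. For these a diet difference was not detectable on these arrays.

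**Figure D1:**
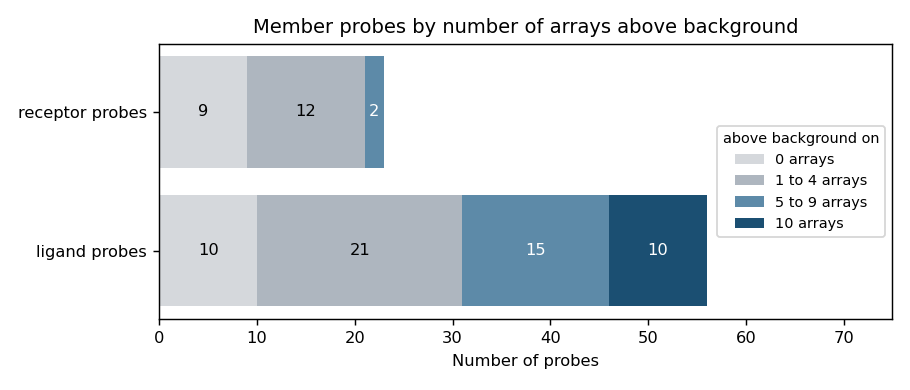
Numbers of chemokine ligand and receptor probes (horizontal axis) by the number of the 10 arrays on which they were above background. Of 56 ligand probes 10 were above background on every array, and of 23 receptor probes 0 were.

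Among the 21 tested genes, 6 were higher in WD SW livers (*Ccl4*, *Cxcl10*, *Ccl5*, *Ccl7*, *Cxcl2* and *Cx3cr1*), 2 were lower (*Ccl25* and *Cxcl13*) and 13 did not pass (limma, Benjamini-Hochberg adjusted p under 0.05 over 10181 genes). The members called were 38.1% of those tested, 28.6% higher and 9.52% lower, and of all genes tested 29.4% passed, 14.2% higher and 15.2% lower. The median log2 fold change, WD SW minus CD, was 0.18 over the 21 members and -0.05 over all genes tested. In 5 members (*Ccl4*, *Cxcl10*, *Ccl5*, *Ccl7* and *Cx3cr1*) all 5 WD SW values lay above all 5 CD values, and in 0 members did they all lie below. Over all genes 19.6% had such groups without overlap, 9.36% with WD SW above and 10.3% with WD SW below. *Cxcl10*, *Ccl7* and *Cx3cr1* passed the filter only through the WD SW arrays, and a gene that enters in this way had to differ, so these counts carry no support of their own. With no filter on low signals all 54 genes entered, and 6 were again higher and 2 lower, the same genes.

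**Figure D2:**
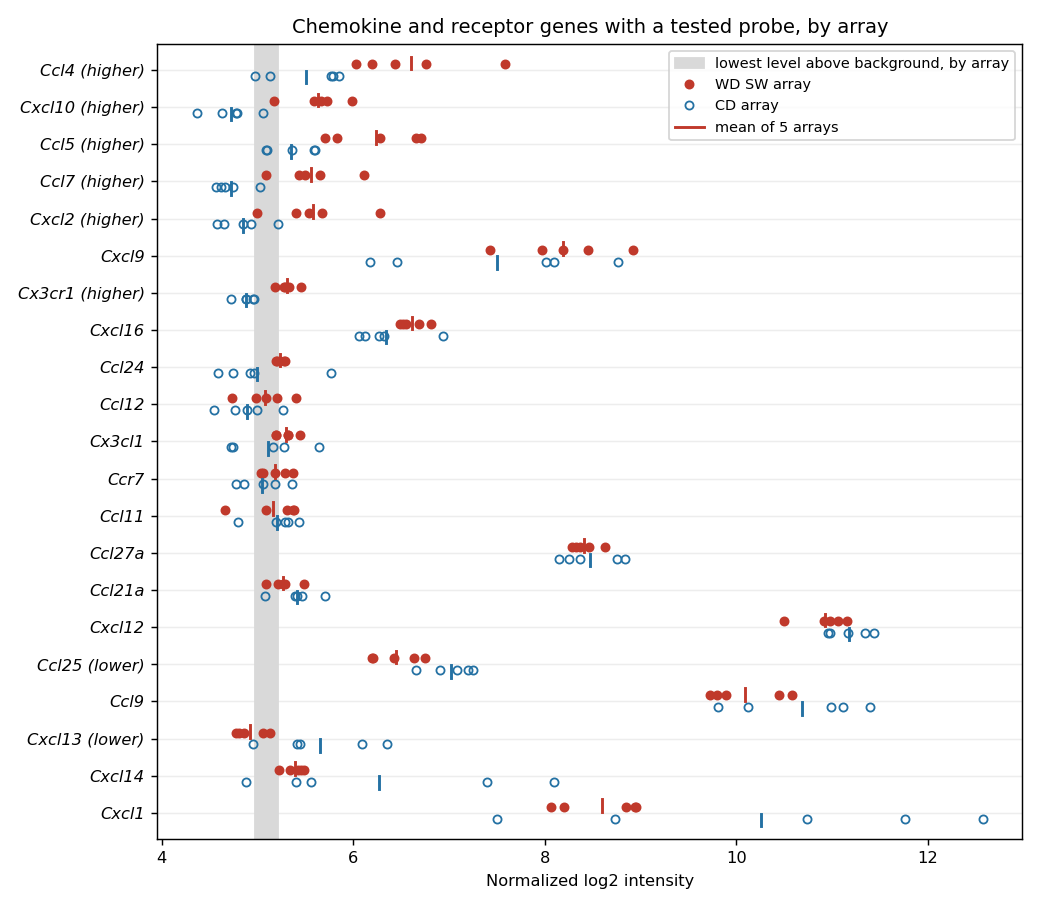
Normalized log2 intensity (horizontal axis) of the 21 tested members on each array, with filled points for WD SW, open points for CD and vertical bars for the mean of 5 arrays. Genes marked higher or lower passed the test, the grey band spans the lowest level above background from array to array (4.97 to 5.22), and the CD points of *Cxcl1*, *Cxcl14* and *Cxcl9* spread wider than their WD SW points.

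The inflammatory CC ligands, which attract monocytes, T cells and eosinophils, held 3 of the 6 increases. *Ccl4*, macrophage inflammatory protein 1 beta, had normalized log2 intensities of 6.19, 6.76, 7.58, 6.44 and 6.03 on WD SW replicates 1 to 5 and 5.13, 5.77, 5.85, 4.98 and 5.79 on CD replicates 1 to 5. Every WD SW array lay above every CD array, and WD SW replicate 3 was the highest. The log2 fold change was 1.10 ± 0.27 (SE), or 2.14-fold (limma adjusted p = 0.00767, n = 5 per diet). The other *Ccl4* probe was not tested, being above background on 1 WD SW and 0 CD arrays, and its means were 4.85 in WD SW and 4.70 in CD. *Ccl4* was called in 25 of 26 alternative settings and was lost with array brightness as a covariate, where the log2 fold change was 1.37 ± 0.45 and limma's adjusted p was 0.103.

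*Ccl5*, known as RANTES and made by T cells among others, had log2 intensities of 6.71, 6.28, 6.66, 5.84 and 5.71 on the WD SW arrays and 5.59, 5.36, 5.10, 5.09 and 5.60 on the CD arrays. The groups did not overlap, although WD SW replicates 4 and 5 came close to CD replicates 1 and 5. The difference was 0.89 ± 0.20 on the log2 scale, or 1.85-fold (limma adjusted p = 0.00519). With brightness in the fit it was 0.57 ± 0.33 (limma adjusted p = 0.361) and was 0.77 ± 0.40 against CD replicate 1 alone (adjusted p = 0.253), and neither of these passed.

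*Ccl7*, a ligand of Ccr2 that mobilises monocytes, had log2 intensities of 5.49, 5.65, 6.11, 5.43 and 5.09 on the WD SW arrays and 4.62, 4.75, 4.57, 4.66 and 5.02 on the CD arrays. All 5 WD SW arrays were above background and 0 CD arrays were, and the lowest WD SW array lay just above the highest CD array. The means were 5.56 and 4.72, a difference of 0.83 ± 0.17 (limma adjusted p = 0.00297). The other *Ccl7* probe was not tested, being above background on 4 WD SW and 0 CD arrays, and its means were 5.10 in WD SW and 4.81 in CD. Against the lowest level measurable on the CD arrays, *Ccl7* was at least 1.32-fold higher. This bound sets the mean of the WD SW arrays against, for each CD array, the higher of the gene's own value and the lowest level above background. The call was lost in 3 of 25 alternatives, namely scaling on the median of tested probes (0.30 ± 0.23), the brightness covariate (0.94 ± 0.29) and CD replicate 1 as the only control (1.12 ± 0.37).

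The other tested ligands of this class did not pass. The eotaxins *Ccl24* and *Ccl11*, which attract eosinophils through Ccr3, had log2 fold changes of 0.24 ± 0.19 and -0.04 ± 0.17. *Ccl24* was above background on 5 WD SW arrays and on 1 CD array, replicate 2, at 5.77. Without that array its log2 fold change was 0.44 ± 0.13 and passed (limma adjusted p = 0.0229). *Ccl12*, a monocyte chemoattractant of the mouse, had a log2 fold change of 0.19 ± 0.16. *Ccl2*, the chief ligand of Ccr2, is singled out here after its values were seen. Its only probe was above background on 3 WD SW arrays and 1 CD array. Its unnormalized signals were 96.4, 97.0, 104, 86.2 and 79.8 on the WD SW arrays and 85.3, 93.3, 87.0, 81.9 and 87.8 on the CD arrays, so that 3 WD SW arrays lay above every CD array, 1 lay among them and 1 below.

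*Ccl9*, a myeloid chemoattractant, was well above background on every array. Its log2 intensities were 9.80, 9.90, 10.59, 10.44 and 9.72 on the WD SW arrays and 10.12, 9.81, 11.11, 11.40 and 10.99 on the CD arrays. CD replicates 3, 4 and 5 lay above all WD SW arrays, and CD replicates 1 and 2 lay among them. A log2 fold change of -0.60 ± 0.28 resulted (limma adjusted p = 0.127). It passed without CD replicate 2 (-0.81 ± 0.25, adjusted p = 0.0294), was -0.21 ± 0.27 without CD replicates 3 and 4, and was of the opposite sign with brightness in the fit (0.30 ± 0.38) and with scaling on the median of all probes (0.04 ± 0.23).

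The CXC ligands of Cxcr2, the receptor that guides neutrophils, were *Cxcl1*, *Cxcl2* and *Cxcl3*. The genes lie close together on chromosome 5, and the 250 bases upstream of the RefSeq start sites of *Cxcl1* and *Cxcl2* are printed because these neighbours shared a sequence feature while their arrays did not share a pattern (RefSeq, GRCm38.p6, plus strand, chr5:90890995-90891244 for *Cxcl1* and chr5:90903649-90903898 for *Cxcl2*, 5′ to 3′). Capitals mark matches on either strand to GGGANNTTC, a short form of the site bound by NF-kB, the transcription factor family activated by TNF and interleukin 1.
Cxcl1: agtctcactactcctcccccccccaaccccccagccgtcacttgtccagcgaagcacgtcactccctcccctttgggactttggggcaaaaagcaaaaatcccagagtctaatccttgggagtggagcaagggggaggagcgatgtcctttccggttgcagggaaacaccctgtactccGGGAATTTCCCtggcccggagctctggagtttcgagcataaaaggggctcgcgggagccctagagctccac
Cxcl2: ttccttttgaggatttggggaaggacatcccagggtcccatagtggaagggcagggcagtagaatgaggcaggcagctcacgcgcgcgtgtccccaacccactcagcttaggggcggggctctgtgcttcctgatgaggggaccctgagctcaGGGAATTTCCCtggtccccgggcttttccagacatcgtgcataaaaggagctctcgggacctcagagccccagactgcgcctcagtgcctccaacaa
Each promoter held a forward match overlapped by a reverse match, the former beginning 71 bases before the start site in *Cxcl1* and 97 bases before it in *Cxcl2*. Of 32851 mouse promoters of this length 3.23% held the motif, as did those of 8 of the 40 chemokine and receptor genes with a listed promoter (*Ccl1*, *Ccr3*, *Cxcl1*, *Cxcl2*, *Cxcl3*, *Cxcl9*, *Cxcl10* and *Cxcr2*). A match is a description of the letters and not of a site in use.

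*Cxcl2* had log2 intensities of 5.40, 5.67, 6.28, 5.54 and 4.99 on the WD SW arrays and 4.65, 4.58, 5.22, 4.94 and 4.85 on the CD arrays. It was above background on 4 WD SW arrays and on 1 CD array, and WD SW replicate 5 lay within the CD range. WD SW exceeded CD by a log2 fold change of 0.73 ± 0.21, or 1.66-fold (limma adjusted p = 0.0165). The other *Cxcl2* probe was not tested, being above background on 3 WD SW and 0 CD arrays, and its means were 5.15 in WD SW and 4.86 in CD. The call of the tested probe was lost in the same 3 settings as that of *Ccl7*, with log2 fold changes of 0.23 ± 0.26, 1.02 ± 0.34 and 1.11 ± 0.43. It held without CD replicates 3 and 4 (0.96 ± 0.25, limma adjusted p = 0.0155).

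*Cxcl1*, the mouse KC chemokine, had log2 intensities of 8.07, 8.85, 8.96, 8.94 and 8.20 on the WD SW arrays and 7.50, 8.73, 12.58, 11.77 and 10.74 on the CD arrays. The WD SW arrays lay within 1 log2 unit of each other, whereas CD replicates 3, 4 and 5 stood far above them and CD replicate 1 lay below them. The SD was 0.43 in WD SW and 2.11 in CD. The log2 fold change of -1.66 ± 0.72 did not pass (limma adjusted p = 0.0976). Its value rested on which CD arrays were used. It passed as lower without CD replicate 1 (-2.34 ± 0.56, adjusted p = 0.00698), was -0.38 ± 0.52 without CD replicates 3 and 4, and was positive against CD replicate 1 alone (1.10 ± 0.35, adjusted p = 0.0741) and with brightness in the fit (1.43 ± 0.68, adjusted p = 0.256).

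The interferon-induced CXC ligands of Cxcr3, a receptor of activated T cells and NK cells, were *Cxcl9*, *Cxcl10* and *Cxcl11*. The promoters of *Cxcl9* and *Cxcl10*, also neighbours on chromosome 5, are printed for the same comparison (RefSeq, GRCm38.p6, minus strand, chr5:92328080-92328329 for *Cxcl9* and chr5:92348890-92349139 for *Cxcl10*, 5′ to 3′). Capitals mark GGGANNTTC and GAAANNGAA, part of the interferon-stimulated response element, on either strand.
Cxcl9: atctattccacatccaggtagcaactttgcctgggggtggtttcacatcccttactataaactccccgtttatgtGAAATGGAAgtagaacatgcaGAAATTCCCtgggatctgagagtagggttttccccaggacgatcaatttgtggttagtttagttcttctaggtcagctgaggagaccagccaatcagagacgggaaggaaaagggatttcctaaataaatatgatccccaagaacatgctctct
Cxcl10: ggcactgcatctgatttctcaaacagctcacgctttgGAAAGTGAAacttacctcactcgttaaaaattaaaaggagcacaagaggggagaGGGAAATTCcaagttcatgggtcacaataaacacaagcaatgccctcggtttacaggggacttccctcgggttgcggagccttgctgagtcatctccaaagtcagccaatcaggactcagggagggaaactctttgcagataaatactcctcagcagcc
*Cxcl10* held the interferon-type motif 213 bases and the NF-kB-type motif 159 bases before its start site, and *Cxcl9* held them 175 and 154 bases before its own. GAAANNGAA occurred in 7.13% of all promoters and in those of 8 of the 40 chemokine and receptor genes (*Ccl1*, *Ccl3*, *Ccl19*, *Ccr2*, *Cxcl9*, *Cxcl10*, *Cxcl14* and *Cxcr1*). The matches depended on the length searched. With 1 more base at the 3′ end (C and A, respectively) the motifs occurred in 1.21% and 2.98% of promoters, and *Cxcl1*, *Cxcl2* and *Cxcl10* kept theirs while *Cxcl9* held neither, which says only that those letters are not in this window.

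**Figure D3:**
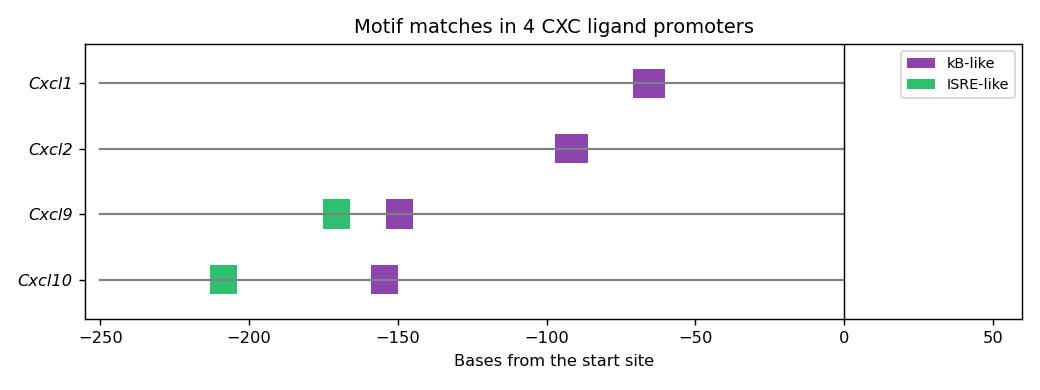
Positions, in bases from the RefSeq start site, of matches to an NF-kB-type motif (purple) and an interferon-type motif (green) in the 250 bases upstream of 4 CXC ligand genes. All 4 hold the NF-kB-type letters, from 71 bases before the start in *Cxcl1* to 159 in *Cxcl10*, and *Cxcl9* and *Cxcl10* hold the interferon-type letters.

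*Cxcl10*, also known as IP-10, had log2 intensities of 5.67, 5.59, 5.99, 5.73 and 5.18 on the WD SW arrays and 4.37, 4.77, 4.78, 5.05 and 4.63 on the CD arrays. It was above background on all 5 WD SW arrays and on 0 CD arrays, and the groups did not overlap. The means were 5.63 and 4.72, a difference of 0.91 ± 0.17 (limma adjusted p = 0.0013), and the level in WD SW was at least 1.40-fold higher than the lowest level measurable in CD. The other tested *Cxcl10* probe gave a log2 fold change of 0.84 ± 0.14, and it too was above background on 5 WD SW and 0 CD arrays. Of the 26 alternatives 25 kept the call, among them the brightness covariate (1.28 ± 0.26, adjusted p = 0.0183) and CD replicate 1 as the only control (1.48 ± 0.32, adjusted p = 0.0221). Scaling on the median of tested probes did not (0.42 ± 0.23, adjusted p = 0.153).

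*Cxcl9*, the monokine induced by interferon gamma, was above background on all 10 arrays, with log2 intensities of 8.46, 7.97, 8.92, 8.19 and 7.43 in WD SW and 6.17, 6.45, 8.10, 8.76 and 8.02 in CD. CD replicates 1 and 2 lay below every WD SW array, while CD replicates 3, 4 and 5 lay among them. Its log2 fold change of 0.69 ± 0.43 did not pass (limma adjusted p = 0.242). It was positive in all 27 alternatives and passed in 4 of them. These were median scaling over all probes (1.53 ± 0.36), the brightness covariate (2.33 ± 0.49, adjusted p = 0.0225), CD replicate 1 as the only control (2.10 ± 0.42, adjusted p = 0.0169) and the fit without CD replicates 3 and 4 (1.33 ± 0.39, adjusted p = 0.0261).

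The homeostatic and other CC ligands had 3 tested genes, of which 1 was lower in WD SW. *Ccl25*, the ligand of Ccr9 that guides T cells to thymus and small intestine, had log2 intensities of 6.64, 6.75, 6.21, 6.20 and 6.42 on the WD SW arrays and 7.25, 7.20, 6.90, 6.66 and 7.08 on the CD arrays. The groups overlapped only through CD replicate 4, which lay below WD SW replicate 2. The log2 fold change was -0.57 ± 0.16 (limma adjusted p = 0.0140), yet its direction followed the scaling and was 0.20 ± 0.25 when the arrays were scaled on the median of all probes. The unnormalized signals ran from 153 to 212 in WD SW and from 118 to 249 in CD, CD replicate 1 being the highest. With brightness in the fit *Ccl25* was still lower (-0.95 ± 0.24, adjusted p = 0.0414), and against CD replicate 1 alone it was -0.85 ± 0.27 and did not pass (adjusted p = 0.0740). Another probe for the same transcript ran the other way. It was not tested, being above background on 4 WD SW and 0 CD arrays, and its means were 5.19 in WD SW and 4.82 in CD, with every WD SW array above every CD array.

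Of the 4 tested genes among the other CXC ligands 1 passed, also lower. *Cxcl13*, the ligand of Cxcr5 that gathers B cells, had log2 intensities of 4.86, 5.05, 4.80, 4.78 and 5.13 on the WD SW arrays and 5.42, 6.35, 5.44, 6.10 and 4.95 on the CD arrays. It was above background on 2 WD SW and 4 CD arrays, and CD replicate 5 lay within the WD SW range. The log2 fold change was -0.73 ± 0.22 (limma adjusted p = 0.0242) and was negative in all 25 alternatives, of which 14 kept the call. It was lost with brightness in the fit (-0.62 ± 0.38, adjusted p = 0.390), without CD replicates 3 and 4 (-0.71 ± 0.27, 0.0721), with a random block for title numbers (-0.70 ± 0.26, 0.0723) and against CD replicate 1 alone (-0.61 ± 0.23, 0.125). Without background correction the log2 fold change was -0.33 ± 0.12 (limma adjusted p = 0.0585) and with the authors' values -0.34 ± 0.12 (0.0588), and the call was lost in both. Single arrays decided it too, and it failed without WD SW replicate 1 (-0.68 ± 0.24, adjusted p = 0.0557), WD SW replicate 3 (-0.68 ± 0.24, 0.0525), WD SW replicate 4 (-0.67 ± 0.24, 0.0599), CD replicate 2 (-0.57 ± 0.20, 0.0509) or CD replicate 4 (-0.64 ± 0.23, 0.0568).

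The remaining ligands of these classes and *Cx3cl1* did not pass. *Cxcl12*, the ligand of Cxcr4 and a retention signal for progenitor cells, had mean log2 intensities of 10.92 in WD SW and 11.18 in CD, a difference of -0.25 ± 0.16. Its 3 tested probes, designed to different transcripts, did not run together, the other 2 giving 0.37 ± 0.18 and 0.45 ± 0.13, and the last of these passed when every probe was its own feature (limma adjusted p = 0.0184). *Cxcl16*, a transmembrane ligand of Cxcr6, gave 0.27 ± 0.17 with the probe that stood for the gene and -0.27 ± 0.15 with the other. The former passed without CD replicate 4 (0.43 ± 0.14, adjusted p = 0.0327) and with scaling on the median of all probes (1.02 ± 0.18, adjusted p = 0.000524). *Ccl27a*, known from skin, had means of 8.42 and 8.48, and its difference of -0.06 ± 0.16 turned positive with either median scaling, against CD replicate 1 alone and without CD replicate 2 or 5. Scaled on the median of all probes it passed as higher (0.73 ± 0.22, limma adjusted p = 0.0147). *Ccl21a*, a ligand of Ccr7 whose near-identical copies may share its probe, had a difference of -0.14 ± 0.14, and *Cx3cl1*, the membrane-bound chemokine fractalkine, had 0.18 ± 0.17.

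*Cxcl14*, a CXC ligand of epithelia, separated the CD arrays from each other more than the diets. Its log2 intensities were 5.34, 5.49, 5.23, 5.43 and 5.45 on the WD SW arrays and 5.56, 5.40, 7.40, 8.10 and 4.88 on the CD arrays. CD replicates 3 and 4 stood above the rest and CD replicate 5 below it. Between diets the log2 fold change was -0.88 ± 0.48 (limma adjusted p = 0.181) and became 0.12 ± 0.18 without those 2 arrays. The other *Cxcl14* probe gave -1.79 ± 0.61 and passed when every probe was its own feature (limma adjusted p = 0.0384). At this level 8 member probes were higher and 3 lower, against 31.2% of 17356 probes called overall.

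Of the receptors, only *Cx3cr1* and *Ccr7* were tested. *Cx3cr1*, the fractalkine receptor of monocytes and tissue macrophages, had log2 intensities of 5.28, 5.46, 5.18, 5.29 and 5.34 on the WD SW arrays and 4.88, 4.89, 4.97, 4.73 and 4.95 on the CD arrays. All 5 WD SW arrays lay above background and above all CD arrays, none of which was above background. The means were 5.31 and 4.88, a difference of 0.43 ± 0.12 (limma adjusted p = 0.0139) and at least 1.12-fold, but the sign turned to -0.18 ± 0.16 with scaling on the median of tested probes. The authors' own normalized values gave 0.16 ± 0.05 and missed the threshold (adjusted p = 0.0514), and the call was also lost with brightness in the fit (0.38 ± 0.20, adjusted p = 0.293) and against CD replicate 1 alone (0.52 ± 0.21, adjusted p = 0.154). *Ccr7*, which guides dendritic cells and naive T cells to lymph nodes, was above background on 5 WD SW and 2 CD arrays with a difference of 0.14 ± 0.14.

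The other receptor probes stayed near the floor. Over all 23 receptor probes and 10 arrays the unnormalized signal ran from 74.2 to 112, next to background levels of 78.0 to 88.1. *Ccr2*, the monocyte receptor for Ccl2 and Ccl7, is singled out after its values were seen. Of its 2 probes, 1 was above background on 1 array and the other on none. The probe for *Cxcr4* was above background on 2 WD SW arrays, as was that for *Cxcr3*, and the 2 probes for *Cxcr2* on none.

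The SD was larger in CD than in WD SW for 12 of 21 members. The mean of CD replicates 3 and 4 lay below that of the other CD arrays in 10 of 21 members. Both of these arrays lay above the other CD arrays in 8 of 21 members. On average they did so by over 1 log2 unit in 3 of them, *Cxcl1* (3.18), *Cxcl14* (2.47) and *Cxcl9* (1.55). Neither count was made over all genes. In CD replicates 3 and 4 *Saa1*, an acute-phase protein made by hepatocytes in response to interleukins 6 and 1, stood at 13.21 and 13.99, while the other CD arrays spanned 6.42 to 7.69 and the WD SW arrays 9.31 to 11.26. *Lcn2*, another acute-phase gene, was at 12.95 and 13.36 there, where the other CD arrays spanned 5.46 to 6.48. Their part in the chemokine values was not tested, and *Cxcl1* was also high on CD replicate 5, where *Saa1* was at 7.18. Without CD replicates 3 and 4 8 members were higher, the 6 above with *Cxcl9* and *Cxcl16* (0.48 ± 0.15, limma adjusted p = 0.0330), and 1 was lower, *Ccl25* (-0.75 ± 0.17, adjusted p = 0.00792). Of all genes tested 24% were called in this fit, 50.7% of these calls higher.

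**Figure D4:**
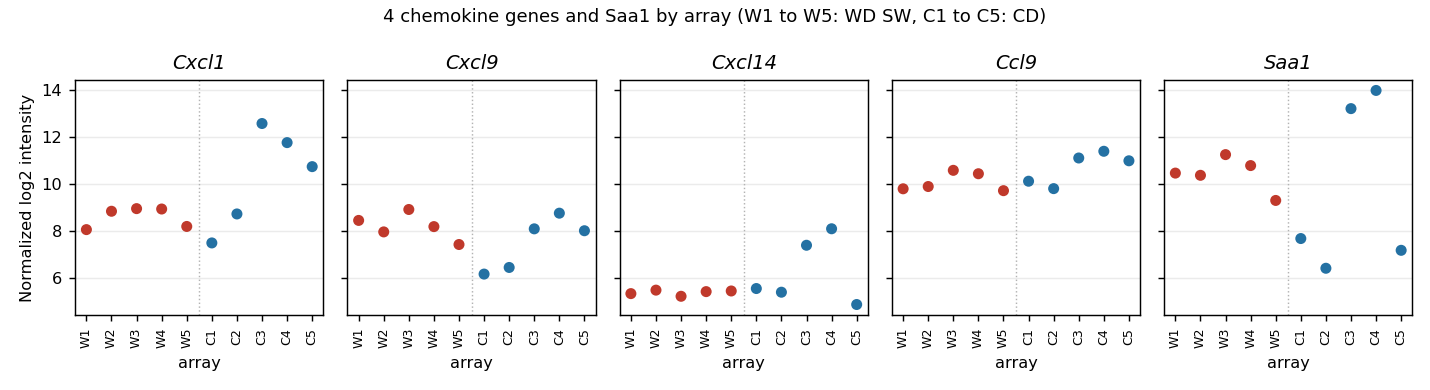
Normalized log2 intensity (vertical axis) of *Cxcl1*, *Cxcl9*, *Cxcl14*, *Ccl9* and the acute-phase gene *Saa1* on each array (horizontal axis, W1 to W5 for WD SW and C1 to C5 for CD replicates 1 to 5). CD replicates 3 and 4 lie above the other CD arrays in all 5 genes, and *Cxcl1* is also high on CD replicate 5, at 10.74.

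Brightness moved with the diets, since CD replicate 1 alone matched the WD SW arrays in signal, and the 2 can be told apart only through that array. With the 95th percentile signal as a covariate, 391 genes were called in place of 2995 (3.84% in place of 29.4%), and among the members *Cxcl10* and *Cxcl9* were higher and *Ccl25* lower. With CD replicate 1 as the only control 813 genes were called, and *Ccl4*, *Cxcl10* and *Cxcl9* were higher with 0 members lower. *Cxcl10* was the only member called higher in each of the fits with brightness, of all arrays and without CD replicates 3 and 4. Its call was lost with scaling on the median of tested probes, where *Ccl4* and *Ccl5* were called higher. *Cxcl10* also passed the filter only through the WD SW arrays.

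**Figure D5:**
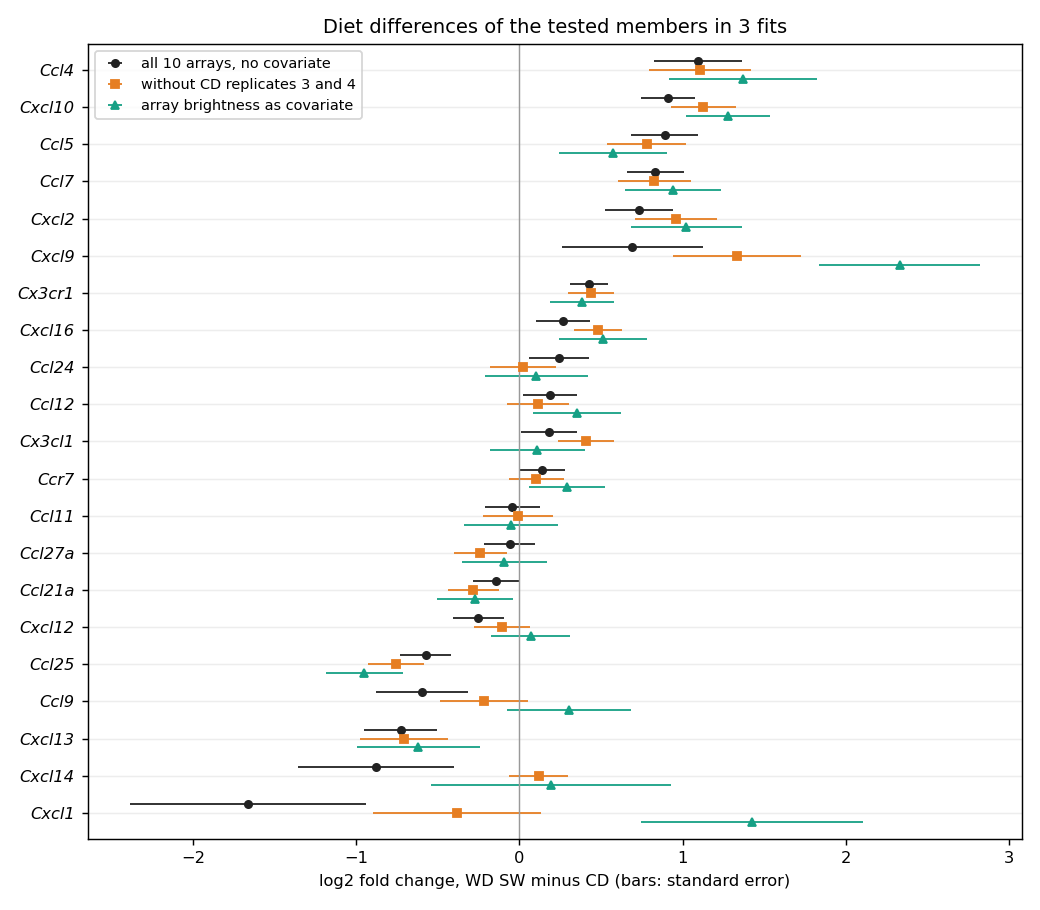
Log2 fold change, WD SW minus CD (horizontal axis, bars show the standard error), of the 21 tested members with all 10 arrays, without CD replicates 3 and 4, and with array brightness as a covariate. *Cxcl9* runs from 0.69 to 2.33 and *Cxcl1* from -1.66 to 1.43 across the 3 fits, while *Cxcl10* runs from 0.91 to 1.28. Signs of *Cx3cr1* and *Ccl25* turned only under median scalings that are not plotted.

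The WD SW arrays were not alike in the members that rose. WD SW replicate 3 was the highest of the 5 in 4 of the 6 genes (*Ccl4*, *Cxcl10*, *Ccl7* and *Cxcl2*), and WD SW replicate 5 was the lowest in 5, all but *Cx3cr1*. The macrophage and monocyte markers ran in the same way. Their summed level was the sum of linear normalized intensities over the 10 listed genes with a probe, tested or not. It was 2452, 2721, 4567, 3204 and 1456 on WD SW replicates 1 to 5 and 890 to 1754 on the CD arrays. Of the 8 tested genes 4 were higher, 0 were lower and the median log2 fold change was 0.90. The examples were *Mmp12*, a macrophage elastase (3.25 ± 0.37, limma adjusted p = 3.87e-05), and *Gpnmb*, a glycoprotein of lipid-laden macrophages (3.03 ± 0.33, adjusted p = 3.20e-05). *Itgax* was above background on no array. The pan-leukocyte markers were likewise highest on WD SW replicate 3, summing to 1578 to 3241 in WD SW and 1118 to 1725 in CD. Of 6 genes 3 were higher, among them *Cd52* (1.06 ± 0.22) and *Coro1a* (mean log2 intensities of 6.78 and 5.77). The other tested *Coro1a* probes gave 0.94 ± 0.16 and 0.16 ± 0.19. With brightness in the fit *Mmp12*, *Gpnmb* and *Cd52* kept their calls and *Coro1a* did not (0.91 ± 0.39, adjusted p = 0.207). Their part in the chemokine differences was not tested.

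The atypical receptors, which bind chemokines without G protein signalling, and the chemokine-like ligands had 9 of 12 genes tested, 3 higher and 1 lower, with a median log2 fold change of 0.31. *Ackr4*, which scavenges Ccl19, Ccl21 and Ccl25, was at 9.27, 8.82, 8.50, 8.57 and 8.65 in WD SW and at 6.70, 7.31, 7.13, 6.93 and 6.35 in CD. The groups were far apart, with a log2 fold change of 1.88 ± 0.19, or 3.67-fold (limma adjusted p = 2.20e-05). *Cd74*, the invariant chain of MHC class II and a receptor for the cytokine MIF, was 1.85 ± 0.30 higher (adjusted p = 0.000585). The remaining increase was *Ackr1* (0.63 ± 0.16), a receptor that carries chemokines across endothelium. *Rarres2*, which encodes the leukocyte attractant chemerin, was lower (-0.85 ± 0.15, adjusted p = 0.00104). Its 3 tested probes disagreed, another giving -1.35 ± 0.28 and the remaining one 1.55 ± 0.22, and each passed when every probe was its own feature, so no direction is given for the gene. *Mif* was 0.02 ± 0.14.

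Downstream signalling had 18 of 25 genes tested, 5 higher and 0 lower, with a median of 0.25. *Rgs1*, which shortens G protein signals in leukocytes, was at 6.33, 6.37, 7.70, 6.43 and 5.66 in WD SW and at 5.12, 5.06, 4.91, 4.89 and 6.02 in CD. Only CD replicate 5 reached the WD SW range, and the log2 fold change was 1.30 ± 0.31 (limma adjusted p = 0.00658), while the other tested *Rgs1* probe gave 0.22 ± 0.17. *Gnb1*, a G protein beta subunit found in most cells, rose by 1.21 ± 0.20 (adjusted p = 0.000567). The inhibitory alpha subunits *Gnai2* and *Gnai3* did not pass (0.32 ± 0.17 and -0.25 ± 0.15). Leukocyte adhesion had 12 of 16 genes tested, 2 higher and 0 lower, with a median of 0.10. These were *Vcam1*, an endothelial ligand of leukocyte integrins (1.44 ± 0.28, adjusted p = 0.00189), and *Selplg*, the ligand of P-selectin (0.67 ± 0.15, adjusted p = 0.00362). Cytokines and NF-kB inputs had 16 of 24 tested, 4 higher and 0 lower, with a median of 0.04. *Il1a*, an interleukin 1 ligand, was at least 1.34-fold higher (means of 5.57 and 4.73, limma adjusted p = 0.000892, above background on 5 WD SW and 0 CD arrays), and the TNF receptor *Tnfrsf1b* was higher by 0.81 ± 0.25 (adjusted p = 0.0264). *Il1a* passed the filter only through the WD SW arrays and so had to differ. Its call, also within the count over the 4 lists, carries no support of its own. *Tnf*, *Il6* and *Ifng* were not tested. Over all 4 lists 14 of 55 tested genes were higher (25.5%) and 1 lower (1.82%), where 14.2% and 15.2% of all genes were. With brightness in the fit 2 of these 15 calls remained, *Ackr4* (1.84 ± 0.33, limma adjusted p = 0.0102) and *Vcam1* (1.95 ± 0.45, adjusted p = 0.0301). With scaling on the median of all probes 31 genes of the 4 lists were called, 54.5% of the 55 higher and 1.82% lower. In that fit 49.3% of all genes were called, 97.1% of these calls higher. On the median of tested probes 11 of the 55 were higher (20%) and 9 lower (16.4%), so the split followed the scaling. Of all genes 43.9% were called with that scaling, 27% of these calls higher. There *Il1a* (0.33 ± 0.17), *Selplg* (0.29 ± 0.17) and *Tnfrsf1b* (0.47 ± 0.24) did not pass. Without CD replicates 3 and 4 the called genes named above kept their calls.

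Markers of other cells are given for comparison. Their summed levels are over all listed genes with a probe, including genes that were not tested and lay near background. Kupffer cell markers summed to 1323 to 1931 in WD SW and 1008 to 2394 in CD, and of 5 genes *Folr2* was higher (0.74 ± 0.21) and the scavenger receptor *Cd163* lower (-2.02 ± 0.29). *Cd5l* was above background on no array. Neutrophil markers summed to 282 to 363 and 326 to 838, with *Ltf* at least 1.51-fold lower of 5 tested (means of 4.83 and 5.61, above background on 0 WD SW arrays) and *Mpo* on no array. *Ltf* passed the filter only through the CD arrays, so its call carries no support of its own. T cell markers summed to 802 to 1269 and 581 to 921, with 0 of 4 called, *Cd8b1* at 0.41 ± 0.20 and *Cd5* on no array. NK cells had only *Prf1* tested, which was lower (-0.93 ± 0.17), and *Ncr1* was on no array. B cells had only *Cd79b* tested (0.35 ± 0.13, not called), and *Blk* was on no array. Dendritic cells had *Siglech* lower (-0.48 ± 0.17) of 3 tested. Sinusoidal endothelium had *Lyve1* (1.26 ± 0.34) and *Fcgr2b* (1.13 ± 0.17, its other tested probes giving -0.17 and 0.30) higher and *Kdr* lower (-0.47 ± 0.15) of 8. Stellate cells had 3 of 8 higher, among them the collagens *Col1a1* (0.62 ± 0.21) and *Col3a1* (0.58 ± 0.21), with sums of 6343 to 7946 and 5139 to 6171. Cholangiocytes had *Sox9* lower (-2.11 ± 0.23), the only gene tested, with *Krt19* and *Epcam* on no array. The other tested *Sox9* probe gave -0.35 ± 0.20 and did not pass when every probe was its own feature (limma adjusted p = 0.207). Of 8 hepatocyte genes *Trf* was higher (1.46 ± 0.23) and 3 were lower, among them *Alb* (-1.93 ± 0.22) and *Serpina1a* (-1.10 ± 0.14). The *Alb* probe read low for a hepatocyte marker, with mean log2 intensities of 7.06 in WD SW and 8.99 in CD. Those of *Ttr* were 14.73 and 14.76, so the *Alb* call is given for this probe only. Of 6 acute-phase genes only *Hp* passed, higher (0.97 ± 0.28, its other tested probes giving 3.16 ± 0.37 and 3.16 ± 0.42). With brightness in the fit *Lyve1*, *Sox9*, *Alb*, *Serpina1a* and *Trf* kept their calls. The calls of *Folr2*, *Cd163* (-1.09 ± 0.38, limma adjusted p = 0.123), *Ltf*, *Prf1*, *Siglech*, *Fcgr2b*, *Kdr*, *Col1a1*, *Col3a1* and *Hp* were lost. *Prf1*, *Kdr* and *Siglech* also failed with scaling on the median of all probes. *Siglech*, *Col1a1* and *Hp* also failed on that of tested probes.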

How the data were processed

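Liver RNA of 5 WD SW and 5 CD mice was measured on 10 Illumina arrays, grouped by the diet in the sample labels. The authors deposited unnormalized probe intensity values, linear and with background included, which were used for the main results, and intensity values that they had normalized by a method not given in the sources used here, which served as an alternative. Whether each sample was extracted or scanned apart is not stated, so p-values describe only how these samples vary, which may be technical. The number of arrays limits the precision.

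Signals were background corrected (normexp on all probes, offset 16), quantile normalized and put on the log2 scale with limma 3.58.1 (R 4.3.3). A probe was above background on an array where it exceeded the mode of the log2 signals (kernel bandwidth 0.02) at a one-sided normal p of 0.05, with the SD taken from signals below the mode, and was tested if so on at least 5 of 10 arrays. The probe with the highest mean stood for its gene. Probes were named through the platform annotation, and all 54 symbols matched RefSeq (GRCm38.p6), from which promoters of 40 of the genes were read. Diets were compared with limma's moderated linear model without covariates and Benjamini-Hochberg adjustment over all genes tested. The computation was tested on simulated data.

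Members and gene lists were chosen with earlier results of these data known. The genes named were every member, with array values for those called or without overlap, and of each list up to 2 called higher and 2 called lower or its brightest tested gene. Other genes with values were chosen after these were seen. Alternatives covered background correction, scaling, the authors' values, the filter, the probe that stood for a gene, the variance model, brightness and left-out arrays.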

Additional observations from a re-analysis of the deposited data

How the results depend on the processing

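No paired analysis was possible because replicate numbers were given in listing order and pair no arrays across diets. The fit of all arrays called 2995 genes, 6 members higher and 2 lower (8 in all), 11 member probes and 15 genes of the 4 pathway lists. Scaling changed the split of calls most. With median scaling over all probes 5016 genes were called, 97.1% of them higher in place of 48.3%, with 31 genes of the pathway lists and 1 member lower, and the median of all genes moved to 0.48 while that of the members was 0.34. With median scaling over tested probes, chosen after seeing the data, 27.0% of 4465 calls were higher, 2 members were higher and 6 lower, and the medians were -0.22 and -0.36. Under the former *Ccl11* (0.12), *Ccl27a* (0.73), *Ccl21a* (0.069), *Cxcl12* (0.31), *Ccl25* (0.20) and *Ccl9* (0.044) changed sign, and under the latter *Cx3cr1* (-0.18), *Ccl24* (-0.34), *Ccl12* (-0.45), *Cx3cl1* (-0.36), *Ccr7* (-0.44) and *Ccl27a* (0.035).

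With brightness as a covariate 391 genes, 2 members higher and 1 lower (3 in all), 4 member probes and 2 pathway genes were called, and *Cxcl12* (0.068), *Ccl9* (0.30), *Cxcl14* (0.19) and *Cxcl1* (1.43) changed sign. Against CD replicate 1 alone, whose spread was taken to be that of the other arrays, 813 genes, 3 members higher and 0 lower (3 in all), 4 member probes and 8 pathway genes were called, and *Ccl27a* (0.043) and *Cxcl1* (1.10) changed sign. The mean of tested probes turned *Cxcl16* (-0.0035) and *Cxcl12* (0.19), and leaving out CD replicates 3 and 4 turned *Cxcl14* (0.12). Detection on all 10 arrays left 7 members, 0 called higher and 1 lower (1 in all, and 1 probe), and a detection p under 0.01 gave 1 lower, 5 in all and 7 probes, both through fewer genes tested. In 4 other settings (no background correction, the authors' values, a random block by title number, and without CD replicates 3 and 4) 1 member was lower. Leaving out each array in turn gave 2348 to 3376 genes, 6 to 7 members higher, 1 to 3 lower, 8 to 14 member probes and 12 to 15 pathway genes, with *Ccl11* between -0.15 and 0.080 (positive without CD replicate 5 or WD SW replicate 4) and *Ccl27a* between -0.14 and 0.030 (positive without CD replicate 2 or 5). *Cxcl14* reached -1.77 because its other probe then stood for it. Of 575 further comparisons with an alternative, of single members or of the members' median, 509 were unchanged. A member was unchanged if it kept direction and call, also where it was called in neither fit. The median was unchanged if it moved by less than the SD of the array means within diets. Except where named, the cause was not tested. Low signal limits the receptors, whose probes lay at 74.2 to 112 beside a background of 78.0 to 88.1.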
